A study of Mus musculus with 4 samples.

Results

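Wnt ligands are secreted, lipid-modified glycoproteins that bind Frizzled receptors together with co-receptors. The canonical branch acts through Lrp5 or Lrp6 and stabilises β-catenin, which then activates transcription with Tcf and Lef factors. Other branches act through receptors such as Ror2 and Ryk and change cell shape and movement without β-catenin. In teeth, Wnt signalling from the dental epithelium and mesenchyme is needed for tooth formation, and in bone it promotes the formation and activity of osteoblasts.

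The set described here holds 10 listed Wnt ligand genes, Wnt10a, Wnt10b, Wnt6, Wnt4, Wnt5a, Wnt5b, Wnt7b, Wnt11, Wnt16 and Wnt3a. Its members were chosen by gene name, as the non-control probes that the scanner files assign to these symbols. All 10 genes had a probe, and together they had 12 probes of the 55681 non-control probes on the array. The scanner flagged 11 of the 12 as well above background on 3 or more of the 4 arrays in Cy5, in Cy3 or in both. That left 9 of the 10 genes to be tested, among 19216 genes.

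The study compared odontoblasts, the cells that lay down dentin, with osteoblasts, the cells that lay down bone. The RNA labelled primary odontoblast came from dental pulp and was labelled with Cy5, and the RNA labelled calvarial osteoblast came from calvaria bone and was labelled with Cy3. All cells came from mice aged 2 weeks that carried EGFP under a 2.3 kb type I collagen promoter, were freed by enzyme digestion and were sorted for GFP. The transgene therefore marks cells in which this promoter fragment is active, in both tissues, and does not tell the 2 cell types apart. The strain, C57BL/6, is given for the Cy5 RNA only. Each of the 4 arrays held 1 donor-matched pair of the 2 RNAs, and 250 ng of cDNA of each entered the labelling. The number of animals behind each RNA is not given. The p-values and SEs below rest on the spread between these 4 arrays, moderated by the spread seen over all tested probes.

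Every value is a log2 ratio of Cy5 over Cy3, so a positive ratio stands for a brighter Cy5 spot. No dye swap was made, all 4 arrays were of 1 slide and 1 scan, and dye and label cannot be told apart. Most of the marker genes ran against the labels. Dspp, Nes and Dmp1, which mark odontoblasts, had mean ratios of -1.95, -2.00 and -1.71 and were higher in Cy3 on every array. Of these 3, 0 passed the test and 3 had an unadjusted p under 0.05, against 0.89% and 10.1% of all genes toward Cy3. Of 9 osteoblast markers, 4 were called higher in Cy5, among them Ifitm5 at 5.05 and Col1a2 at 2.79, against 1.29% of all genes. Sp7 was near 0 at 0.02, and Bglap was split, at 3.48, -0.32, -0.35 and 2.55 on arrays 1 to 4. Channels are therefore named here by dye, and if the 2 RNAs had been exchanged, each direction would point to the other cell type while the ratios by dye would stand. Between 67.8% and 85.2% of the probes were well above background per array and channel. The arrays correlated with each other at r between 0.302 and 0.486 over the 44233 probes that passed the filter.

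The ligands did not move as a block. Wnt10a was 60.0-fold higher in Cy3, Wnt5a was 2.13-fold higher in Cy3, and Wnt16 was 15.3-fold higher in Cy5. These 3 of 9 measured ligands had a mean ratio that differed from 0 at an adjusted p under 0.05 (limma, Benjamini-Hochberg over all 37389 features of the fit, n = 4 arrays), 2 toward Cy3 and 1 toward Cy5. Among all 19216 genes the same rule called 2.18%, made up of 1.29% toward Cy5 and 0.89% toward Cy3. At an unadjusted p under 0.05 there were 5 ligands, against 21.3% of all genes, 11.2% toward Cy5 and 10.1% toward Cy3.

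Of the 9 measured ligands, 7 had a mean ratio below 0 and 2 had one above 0. Their median was -1.09, and the median over all genes was 0.0053. The ratio had 1 sign on every array for 5 of the 9 ligands, 4 toward Cy3 and 1 toward Cy5, where 31.4% of all genes had 1 sign, 16% toward Cy5 and 15.4% toward Cy3. Mean differences of at least 2-fold were seen for 6 of the 9, against 12.6% of all genes. The normalised levels of the 2 channels did not overlap over the 4 arrays for 5 ligands, 4 of them higher in Cy3, against 14.4% of all genes, 7.87% higher in Cy5 and 6.52% higher in Cy3.

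**Figure D1:**
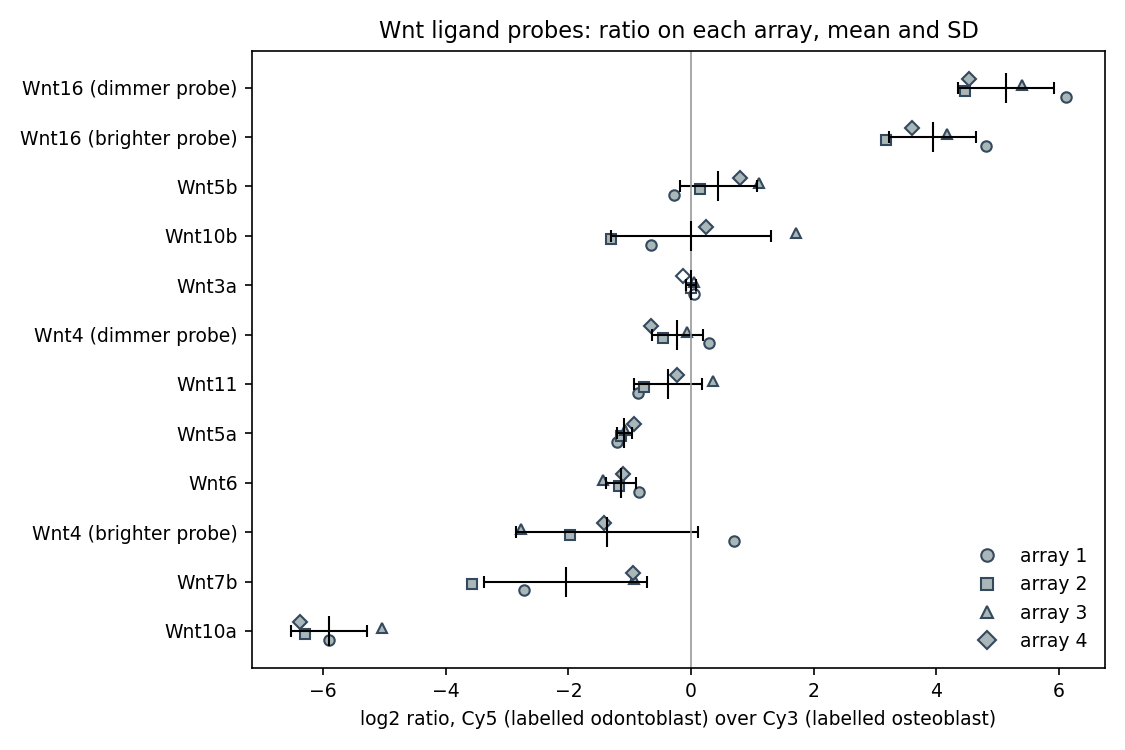
Log2 ratio of Cy5 over Cy3 (x axis) for the 12 probes of the 10 Wnt ligand genes (y axis, ordered by mean), with 1 symbol per array, a tick at the mean and bars of 1 SD over the 4 arrays; open symbols mark the Wnt3a probe, which did not pass the filter. Wnt10a lies between -6.38 and -5.04 and both Wnt16 probes lie at 3.17 or above, while Wnt10b, Wnt4, Wnt5b and Wnt11 have points on both sides of 0.

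The probes are 60-base oligonucleotides, and 3 of them are shown because 2 genes had a pair of probes and because a Wnt4 and a Wnt16 probe share letters. Each is given 5′ to 3′ as in the scanner files, with mm9 coordinates. Capitals mark the 11-base run common to the Wnt4 and the dimmer Wnt16 probe, the longest that any of the 12 probes shares with a probe of another listed ligand.
Wnt16 brighter probe, chr6:22247804-22247863: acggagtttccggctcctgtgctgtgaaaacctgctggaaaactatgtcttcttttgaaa
Wnt16 dimmer probe, chr6:22241135-22241194: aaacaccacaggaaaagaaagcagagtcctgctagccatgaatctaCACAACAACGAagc
Wnt4 brighter probe, chr4:136851690-136852258: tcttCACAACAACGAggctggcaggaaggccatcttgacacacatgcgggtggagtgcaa
The Wnt4 probe covers 569 bases of genome with its 60 bases, so it crosses an intron, whereas the Wnt16 probes lie without a gap. On arrays 2 to 4 the ratios of these probes lay on opposite sides of 0, as described below. A run of 16 bases was shared with a probe of another gene in 2 cases. The Wnt5a probe, of which 51.7% is T, shared such a run with 21 other probes, and the dimmer Wnt16 probe with 1. For the other 10 probes none was found.

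Wnt10a, a canonical ligand whose loss causes missing teeth in people, gave the lowest ratio of the set. Its probe lies at chr1:74850633-74850692 on the forward strand. The ratio was -5.91, -6.30, -5.04 and -6.38 on arrays 1 to 4. All arrays were far toward Cy3, and array 3 was the least so. The mean was -5.91 (SE 0.28, n = 4), 60.0-fold higher in Cy3, with an adjusted p of 0.00579 (limma). It ranked 2 of 19216 genes when ordered from Cy3 to Cy5.

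On each array the Wnt10a spot passed the background flag in Cy5 and in Cy3, but the Cy5 spots were close to background. The mean spot signals in Cy5 were 241, 151, 305 and 126 scanner units on arrays 1 to 4, which is 1.85 to 4.18 times the local background. In Cy3 they were 8911, 6327, 4078 and 4795, or 255 to 495 times the local background. The size of the fold thus rests on dim Cy5 spots. In the deposited value table, which subtracts background without an offset, the mean was -6.78 (limma adjusted p = 0.0141). The call was lost without array 1 (limma adjusted p = 0.0511) and without array 2 (limma adjusted p = 0.0553) and was kept without array 3 (0.0315) and without array 4 (0.0446).

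Wnt6, a ligand of epithelia, and Wnt10a are neighbouring genes, with 19113 bases between their probes. The Wnt6 probe lies at chr1:74831461-74831520 on the forward strand. Its ratio was -0.85, -1.17, -1.43 and -1.11 on arrays 1 to 4. Every array was toward Cy3, within a narrow range. The mean was -1.14 (SE 0.18, n = 4), 2.21-fold higher in Cy3, with a limma adjusted p of 0.0544, so it was not called. The 2 channels did not overlap, at normalised log2 intensities of 10.30 to 11.24 in Cy5 and 11.41 to 12.35 in Cy3. Wnt6 passed the threshold with median centring (limma adjusted p = 0.0413), with scale normalisation (0.0486) and where both channels had to be well above background on every array (0.0478).

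Wnt10a lay further toward Cy3 than Wnt6 on each array, with differences of the log2 ratios, Wnt10a minus Wnt6, of -5.06, -5.13, -3.60 and -5.27. Their mean was -4.77 (SD 0.78, n = 4). With 4 arrays an exact two-sided sign-flip permutation test cannot give a p below 0.125, and differences between 2 ligands are therefore given here with their spread and no p.

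Wnt10b, the paralogue of Wnt10a, promotes bone formation at the expense of fat cells. Its probe lies at chr15:98602209-98602268 on the reverse strand. The ratio was -0.65, -1.31, 1.71 and 0.24 on arrays 1 to 4. Arrays 1 and 2 were toward Cy3 and arrays 3 and 4 toward Cy5. The mean was -0.0032 (SE 0.51, n = 4) with a limma adjusted p of 0.998. Its sign is not settled, since the mean was 0.21 with median centring, 0.21 without array 1 and 0.43 without array 2. The spread of Wnt10b was large, with an SD of 1.31, and 89.5% of the genes had a lower one.

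Wnt10a lay below Wnt10b on 4 of 4 arrays, with a mean difference of -5.90 (SD 0.91). The neighbour of Wnt10b is Wnt1, with 21008 bases between the probes. The Wnt1 ratio, of a canonical ligand best known from the midbrain, was -0.14, -0.18, 0.02 and -0.24. Wnt1 was thus near 0 on every array, where Wnt10b was not. The mean ratio of Wnt1 was -0.13 (SE 0.16, n = 4), with a limma adjusted p of 0.685.

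Wnt16 was the ligand with the highest ratio. It is made by osteoblasts and supports cortical bone. The brighter of its 2 probes had a ratio of 4.81, 3.17, 4.17 and 3.61 on arrays 1 to 4. All arrays were toward Cy5, array 1 the most and array 2 the least. The mean was 3.94 (SE 0.31, n = 4), 15.3-fold higher in Cy5, with a limma adjusted p of 0.0121, and it ranked 45 of 19216 genes from the Cy5 side.

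The dimmer Wnt16 probe had a ratio of 6.11, 4.47, 5.40 and 4.54 on arrays 1 to 4. It is the dimmer one by the mean of both channels, through Cy3, at a mean normalised log2 intensity of 8.26 against 9.18. In Cy5 it was the brighter one, at 13.39 against 13.12. Its order of arrays was the same at the top, with array 1 highest and array 2 lowest. The mean was 5.13 (SE 0.33, n = 4), 35.0-fold higher in Cy5, with a limma adjusted p of 0.00785 in the fit that keeps every probe. It exceeded the brighter probe on 4 of 4 arrays, by a mean of 1.19 (SD 0.18). Both probes gave the same direction and differed in size by more than their spread.

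The Wnt16 channels were far apart for the brighter probe. Its normalised log2 intensity was 11.95 to 13.71 in Cy5 and 8.78 to 9.62 in Cy3. Before normalisation its spots were at 91.6 to 318 times the local background in Cy5 and at 21.7 to 35.2 times in Cy3. The Wnt16 ratio therefore rested on measured signal on both sides. Without array 1, 2 or 4 the call was lost, with limma adjusted p-values of 0.0560, 0.0570 and 0.0753, and without array 3 it was kept (0.0449).

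**Figure D2:**
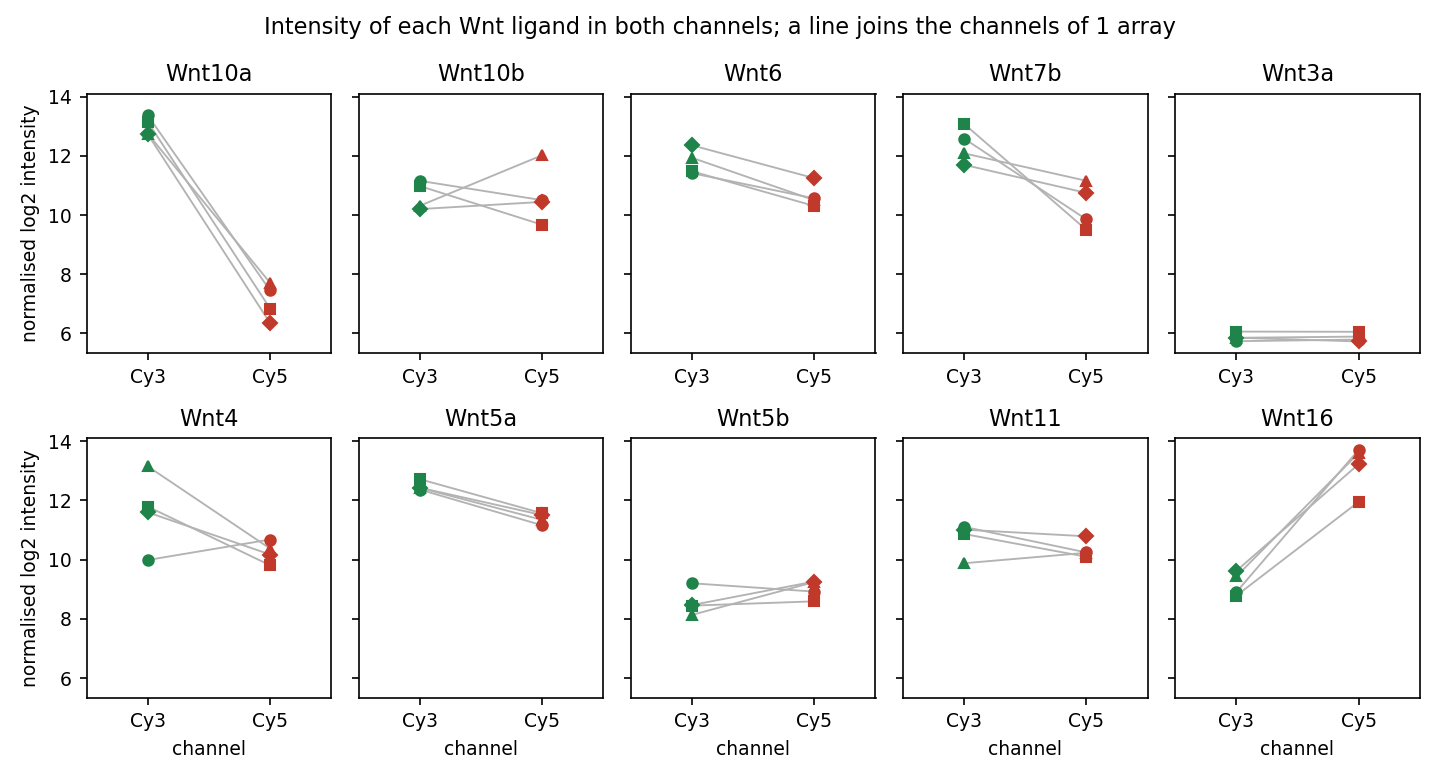
Normalised log2 intensity (y axis) of each Wnt ligand in Cy3 and Cy5 (x axis), with 1 symbol shape per array as in the plot of ratios and a line that joins the 2 channels of an array; genes with 2 probes are shown by the brighter one. The channels are separate for Wnt10a, Wnt6, Wnt5a, Wnt7b and Wnt16 and overlap for Wnt10b, Wnt4, Wnt5b and Wnt11, and Wnt3a lies at the floor in both; levels of different panels come from different probes and are not comparable.

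Wnt5a signals mainly without β-catenin, through Ror2, and guides the outgrowth of limbs, jaw and teeth. Its probe lies at chr14:29336664-29336723 on the forward strand. The ratio was -1.21, -1.15, -1.08 and -0.92 on arrays 1 to 4. All arrays were toward Cy3 and close together. The mean was -1.09 (SE 0.16, n = 4), 2.13-fold higher in Cy3, with a limma adjusted p of 0.0488. The SD of the 4 ratios was 0.12, and 2.66% of the genes had a lower one. The SE exceeds it because limma moderates the variance.

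The Wnt5a call lay at the threshold. It was lost in 9 of 12 alternative settings, over which the limma adjusted p ran from 0.0435 to 0.191 while the mean stayed between -1.15 and -0.82. Without arrays 1 to 4 in turn the adjusted p was 0.180, 0.180, 0.0953 and 0.191. Wnt5a and Wnt6 were about equally far toward Cy3, with a mean difference of 0.05 (SD 0.30), although only Wnt5a was called.

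Wnt5b, the paralogue of Wnt5a, acts in cartilage and fat cell development. Its probe lies at chr6:119382550-119382609 on the reverse strand. The ratio was -0.28, 0.15, 1.11 and 0.79 on arrays 1 to 4. Array 1 was toward Cy3 and the other 3 toward Cy5. The mean was 0.44 (SE 0.28, n = 4), and limma gave an adjusted p of 0.441. On 4 of 4 arrays Wnt5a lay below Wnt5b, with a mean difference of -1.53 (SD 0.55).

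Wnt11, which also signals mainly without β-catenin and directs cell movement in the embryo, did not pass the test. The probe lies at chr7:106001985-106002045 on the forward strand. Its ratio was -0.86, -0.77, 0.35 and -0.23 on arrays 1 to 4. Array 3 was toward Cy5 and the others toward Cy3. The mean was -0.38 (SE 0.26, n = 4), with a limma adjusted p of 0.477.

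Wnt7b, a canonical ligand of oral and lung epithelium that also promotes bone formation, was the second lowest of the set. Its probe lies at chr15:85366896-85366955 on the reverse strand. The ratio was -2.73, -3.58, -0.93 and -0.95 on arrays 1 to 4. Every array was toward Cy3, with arrays 1 and 2 far from arrays 3 and 4. The mean was -2.05 (SE 0.52, n = 4), 4.13-fold higher in Cy3, with a limma adjusted p of 0.140. The channels did not overlap, at normalised log2 intensities of 9.50 to 11.15 in Cy5 and 11.70 to 13.08 in Cy3. Wnt7b thus had a larger mean difference than Wnt5a and a much larger spread, with an SD of 1.33 that exceeded that of 90.0% of the genes.

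Wnt4, a ligand needed for kidney and female reproductive tract development, had 2 probes that did not give the same picture. The brighter one, whose letters are shown above, had a ratio of 0.69, -1.98, -2.78 and -1.42 on arrays 1 to 4. Array 1 was toward Cy5 and the other arrays toward Cy3. The mean was -1.37 (SE 0.57, n = 4), with a limma adjusted p of 0.278. Its SD of 1.48 was above that of 93.1% of the genes.

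The dimmer Wnt4 probe, at chr4:136855342-136855401, had a ratio of 0.29, -0.46, -0.07 and -0.65. It was close to 0 throughout, with array 1 again the highest. The mean was -0.22 (SE 0.22, n = 4), and in the fit that keeps every probe limma gave an adjusted p of 0.622. The brighter minus the dimmer probe was 0.41, -1.52, -2.71 and -0.77, so the disagreement was largest on array 3.

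Wnt3a, the ligand most used to activate the canonical branch in culture, was not well above background in either channel on any array. Its probe lies at chr11:59061556-59061615 on the reverse strand. The spot signals were 0.814 to 1.07 times the local background in Cy5 and 1.27 to 2.23 times in Cy3. The Wnt3a ratios of 0.05, -0.01, 0.04 and -0.13 hence compare background with background, and no fold is given. Its neighbour Wnt9a, with 85338 bases between the probes, was measured and had a mean ratio of 0.88 (SE 0.42, n = 4; limma adjusted p = 0.323). The Wnt9a spot passed the background flag on 3 of 4 arrays in each channel.

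The order of the mean ratios, from Cy3 to Cy5, was Wnt10a, Wnt7b, Wnt4, Wnt6, Wnt5a, Wnt11, Wnt10b, Wnt5b and Wnt16. The array values of Wnt10a did not overlap with those of any other ligand, nor did those of Wnt16. Within arrays, 3 of the 8 pairs of neighbours in this order kept it on all 4 arrays, namely Wnt10a and Wnt7b, Wnt5a and Wnt11, and Wnt5b and Wnt16. The other neighbours changed places on 1 array or more. Of the 28 pairs further apart, 19 kept their order on all 4 arrays. Wnt11 lay below Wnt5b by a difference of -0.58, -0.92, -0.76 and -1.02, with a mean of -0.82 (SD 0.19, n = 4), although both had array values on either side of 0.

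**Figure D3:**
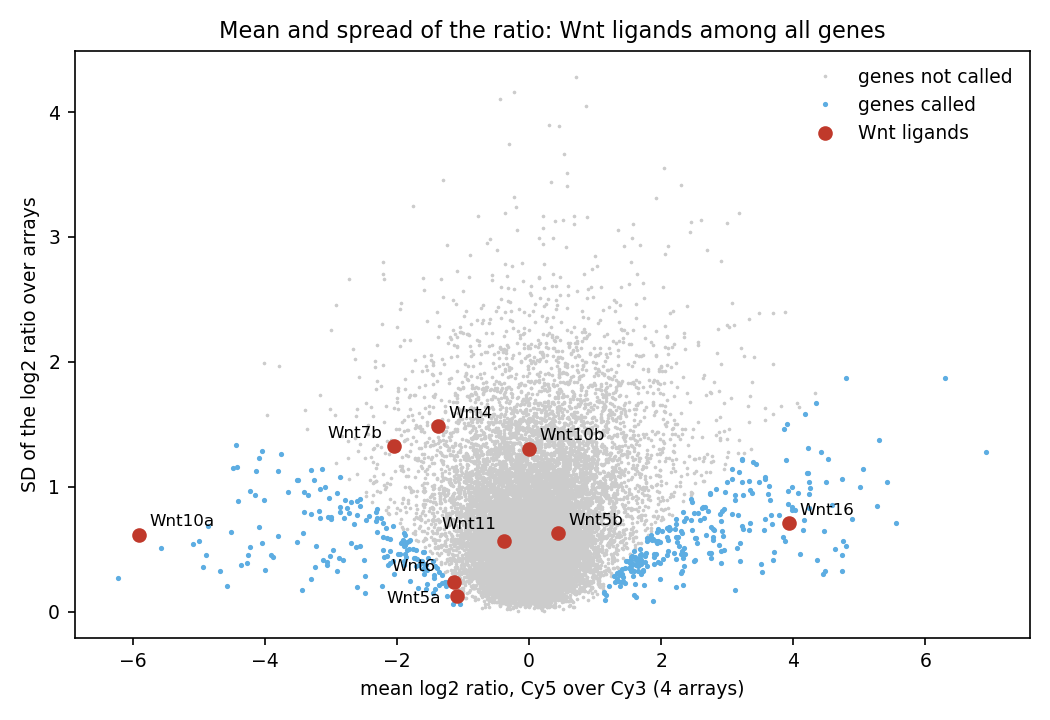
Mean log2 ratio of Cy5 over Cy3 (x axis) against its SD over the 4 arrays (y axis) for the 19216 genes; blue points are the 418 genes called at an adjusted p under 0.05, grey points the others, and red circles the 9 measured Wnt ligands. Wnt10a and Wnt16 lie at the 2 flanks, Wnt5a and Wnt6 have small means with an SD of 0.12 and 0.24, and Wnt7b, Wnt4 and Wnt10b have an SD above 1.3.

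For each called ligand, the genes with the most similar ratios were sought among 13928 named genes whose probe passed the background flag in Cy5 and Cy3 on each array, by the root mean square (RMS) difference of the 4 ratios. Nearest to Wnt10a were Car2, a carbonic anhydrase (RMS difference 0.56), Nts, the neuropeptide neurotensin (0.71), and Serpinb2, a protease inhibitor (1.21). The mean ratios of these 3 genes were -5.57, -6.22 and -4.94. Each had an adjusted p of 0.00545 (limma).

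Nearest to Wnt16 were Nnmt, a nicotinamide methyltransferase (RMS difference 0.41), Phospho1, a phosphatase of mineralising vesicles (0.47), and Rab11fip4, a protein of recycling endosomes (0.50). Their mean ratios were 3.97, 3.62 and 3.97, with limma adjusted p-values of 0.0211, 0.0233 and 0.0157. Nearest to Wnt5a were Myo6, an unconventional myosin (0.04), Rrp12, a ribosome assembly factor (0.08), and Wnk1, a kinase that controls salt transport (0.09). Their mean ratios were -1.06, -1.05 and -1.16, of which Myo6 was not called (limma adjusted p = 0.0512) and Rrp12 and Wnk1 were (0.0493 and 0.0403). Of the 12 alternatives, Rrp12 lost its call in 8 and Wnk1 in 6, with means of -0.63 and -0.37 under median centring, while Nnmt, Phospho1 and Rab11fip4 lost theirs in 4, 4 and 3 and Car2, Nts and Serpinb2 in 2 each. The nearest genes of each ligand were picked for ratios like those of a called gene, so their means and p-values follow from that choice. A likeness over 4 arrays is a description of these ratios only.

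Among the other genes of the pathway, 69 of 73 listed genes in 8 role lists were measured. The test called 1 toward Cy5 and 2 toward Cy3, against 1.29% and 0.89% of all genes. At an unadjusted p under 0.05 there were 14 toward Cy5 and 12 toward Cy3, against 11.2% and 10.1% of all genes. The median ratio over the 69 genes was 0.15.

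Of the 9 other Wnt ligands, 8 were measured. None of the 8 was called and none had an unadjusted p under 0.05, against 2.18% and 21.3% of all genes. The mean ratios of the 8 ran from -0.25 to 0.88, with a median of 0.04. Wnt2b, a ligand of eye and lung development, was the most variable of them, at -3.06, 0.25, 2.25 and -0.0004 on arrays 1 to 4. Its 2 extreme ratios rest on dim spots, at 2.55 times the local background in Cy5 on array 1 and 4.32 times in Cy3 on array 3. The Cy3 spot passed the background flag on 3 of 4 arrays. Wnt8b, a ligand of the forebrain, had a mean ratio of 0.31 (SE 0.20, n = 4; limma adjusted p = 0.448).

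Wnt proteins need a lipid, added by Porcn, and the carrier Wls to leave the cell, and Notum and Trabd2b remove or cut them outside it. Trabd2b, a protease that cleaves Wnt proteins, was the 1 pathway gene called toward Cy5. Its ratio was 3.63, 4.01, 3.25 and 3.18 on arrays 1 to 4, all toward Cy5 and close together. The mean was 3.52 (SE 0.21, n = 4; limma adjusted p = 0.00744), and its 3 probes had means of 1.36, 2.60 and 3.52. Wls had a mean ratio of -0.49 (SE 0.19; limma adjusted p = 0.260, n = 4), and Notum of 0.20 (SE 0.24).

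Of 16 receptors and co-receptors, 15 were measured and none was called, where 2.18% of all genes were. Of the 15, 4 had an unadjusted p under 0.05 toward Cy5 and 3 toward Cy3 (11.2% and 10.1% of all genes). Their means ran from -0.96 to 2.03 with a median of 0.38. Of the brightest, Ptk7, a co-receptor of planar polarity, had a mean ratio of -0.87 (SE 0.17; limma adjusted p = 0.0894, n = 4) and the receptor Fzd1 one of -0.96 (SE 0.34; adjusted p = 0.228). With median centring these means were -0.26 and -0.44. Ror2, a receptor of Wnt5a singled out after its values were seen, had ratios of 0.96, 0.99, 3.84 and 2.34 on arrays 1 to 4. Ror2 was thus toward Cy5 on every array, opposite to Wnt5a, with a mean of 2.03 (SE 0.53; limma adjusted p = 0.147, n = 4). This was the highest mean of the list, and the Cy3 spot passed the background flag on 3 of 4 arrays. On array 3 the Cy3 signal was 45.7 scanner units over a local background of 15.

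Among 12 secreted antagonists, 11 were measured and 1 was called, toward Cy3, against 0.89% of all genes. Wif1, which binds Wnt ligands directly, had a ratio of -2.05, -2.65, -3.26 and -4.17 on arrays 1 to 4. All arrays were toward Cy3, array 4 the most. The mean was -3.03 (SE 0.37, n = 4), and limma gave an adjusted p of 0.0323. The median of the list was 0.85, on the other side of 0, and its means ran from -3.03 to 3.34. At an unadjusted p under 0.05 there were 4 toward Cy5 and 1 toward Cy3, against 11.2% and 10.1% of all genes. The bright members Sfrp2 and Dkk3 had means of 0.85 (SE 0.84) and -0.15 (SE 0.31).

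R-spondins and their Lgr receptors raise the sensitivity of a cell to Wnt ligands. All 7 were measured and 1 was called, toward Cy3, against 0.89% of all genes. This was Lgr6, a receptor found in epithelial stem cells. Its ratio was -3.51, -4.20, -2.03 and -4.31 on arrays 1 to 4. Array 3 was the least toward Cy3, as for Wnt10a. The mean was -3.51 (SE 0.42, n = 4; limma adjusted p = 0.0312), and a second Lgr6 probe had a mean of -2.02. The means of the list ran from -3.51 to 2.10. At an unadjusted p under 0.05 there were 3 toward Cy5 and 2 toward Cy3, against 11.2% and 10.1% of all genes. The bright members Lgr4 and Rspo1 had means of -0.89 (SE 0.52) and 0.52 (SE 0.24).

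The Wif1 and Lgr6 calls were close to the threshold. With scale normalisation both had a limma adjusted p of 0.0502, and no pathway gene was then called toward Cy3. Without array 1, 2, 3 or 4 in turn, Wif1 had an adjusted p of 0.0820, 0.127, 0.0858 and 0.104. Lgr6 lost its call without array 1 (0.136), 2 (0.132) and 4 (0.139). Trabd2b lost it without the same 3 arrays, at 0.0560, 0.0562 and 0.0578.

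None of the 12 cytoplasmic transducers and none of the 3 measured Tcf and Lef factors was called, where 2.18% of all genes were. At an unadjusted p under 0.05 there was 1 transducer toward Cy5 and none toward Cy3, against 11.2% and 10.1% of all genes. No Tcf or Lef factor reached it. Ctnnb1, which encodes β-catenin, had a mean ratio of 0.44 (SE 0.18; limma adjusted p = 0.274, n = 4), and was called with median centring only, at a mean of 1.20. Csnk1a1, a kinase of the complex that marks β-catenin for breakdown, had a mean of -0.11 (SE 0.27). The factors Tcf7l2 and Tcf7 had means of 0.96 (SE 0.43) and 0.43 (SE 0.50).

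The 9 genes that respond to the canonical branch were all measured, and none was called (2.18% of all genes). Their median ratio was -0.44, with 5 toward Cy3 and 1 toward Cy5 at an unadjusted p under 0.05, against 10.1% and 11.2% of all genes. Ccnd1, a cyclin of the cell cycle, was toward Cy3 on every array, with a mean of -1.09 (SE 0.24; limma adjusted p = 0.114, n = 4), but of -0.23 with median centring. Myc, a growth regulator, had a mean of -0.08 (SE 0.24). Axin2, the most used readout of the branch, was singled out after its values were seen and had ratios of -0.87, -0.30, 1.35 and 0.25. Its arrays were split, with a mean of 0.11 (SE 0.38; limma adjusted p = 0.901, n = 4) that was -0.31 without array 3.

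**Figure D4:**
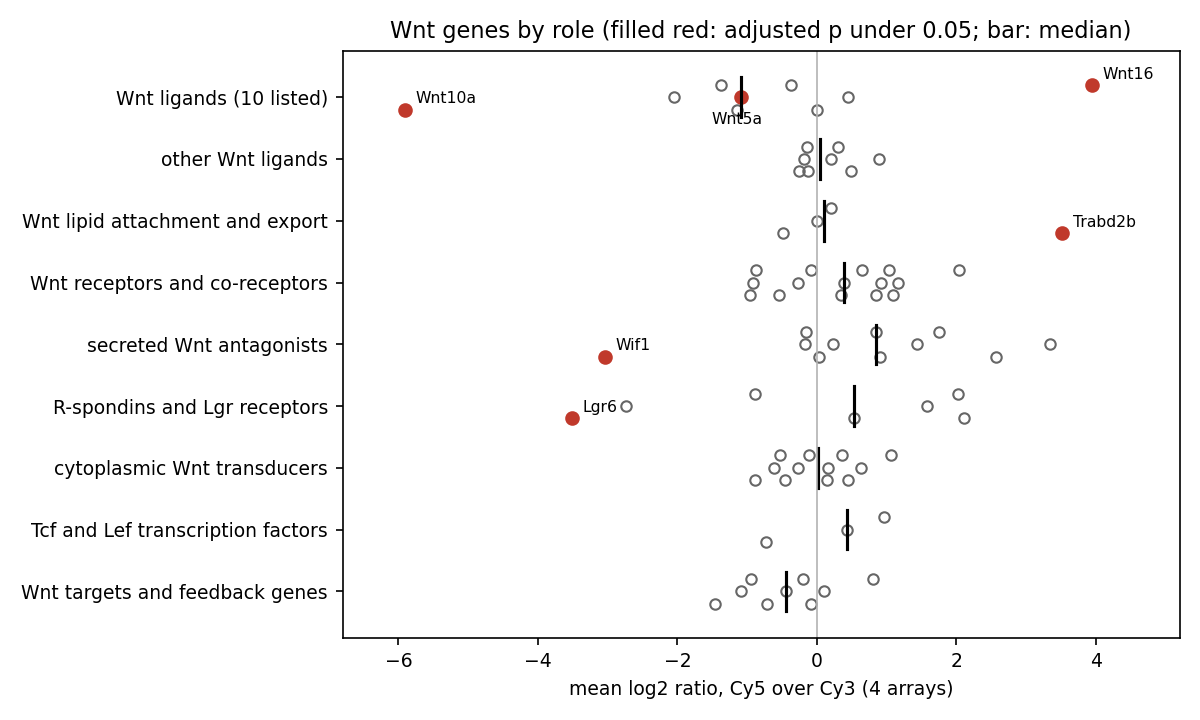
Mean log2 ratio of Cy5 over Cy3 (x axis, 4 arrays) of each measured gene of the Wnt pathway, by role (y axis), with filled red points for genes at an adjusted p under 0.05, open points for the others and a bar at the median of each list. The listed Wnt ligands span from -5.91 to 3.94, and the other Wnt ligands stay between -0.25 and 0.88.

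Markers of other cells moved between the channels too, and their part in the ligand values was not tested. In bulk RNA, fewer cells of a type and less RNA per cell cannot be told apart. Of 12 dental epithelium markers, 10 were measured and 2 were called, both toward Cy3 as Wnt10a was, Odam at -5.00 and Ambn at -3.05, where 0.89% of all genes were called toward Cy3. The median of that list was -0.54 and its medians on arrays 1 to 4 were -0.82, -0.70, -0.10 and -1.16. The summed normalised intensity ran the other way, at 91761 to 105340 in Cy5 and 67066 to 91790 in Cy3, and was mostly that of the Trp63 probe, with a mean ratio of 0.54. Without Trp63 it was 2248 to 3157 in Cy5 and 6608 to 13008 in Cy3. The keratins Krt5 and Krt14 had means of -0.14 and -0.10, and Amtn and Cdh1 did not pass the filter.

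In the direction of Wnt16, toward Cy5, the test called 3 of 9 cartilage markers, 4 of 8 fibroblast and tendon markers and 2 of 8 leukocyte markers, where 1.29% of all genes were called toward Cy5. Toward Cy3 on every array lay Postn of the fibroblast and tendon list, at a mean of -1.62, and Csf1r of the leukocyte list, at -0.39. Cd68, also a leukocyte marker, had a mean of -0.10. The lowest probes of Csf1r and Cd68 had means of -2.84 and -1.20. The medians of these lists were 2.04, 3.55 and 1.94. Their summed normalised intensities were 48596 to 213765 in Cy5 and 4156 to 8319 in Cy3 for cartilage, 173861 to 253035 and 50389 to 201481 for fibroblast and tendon, and 111859 to 190187 and 77239 to 106156 for leukocytes. Without the brightest gene of each, Comp, Col3a1 and Itgam, they were 10864 to 57904 and 3750 to 7519, 111593 to 167667 and 36343 to 106825, and 38535 to 122519 and 25074 to 31260. None of the 5 measured endothelial markers was called, where 2.18% of all genes were, and their median was 0.13.

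**Figure D5:**
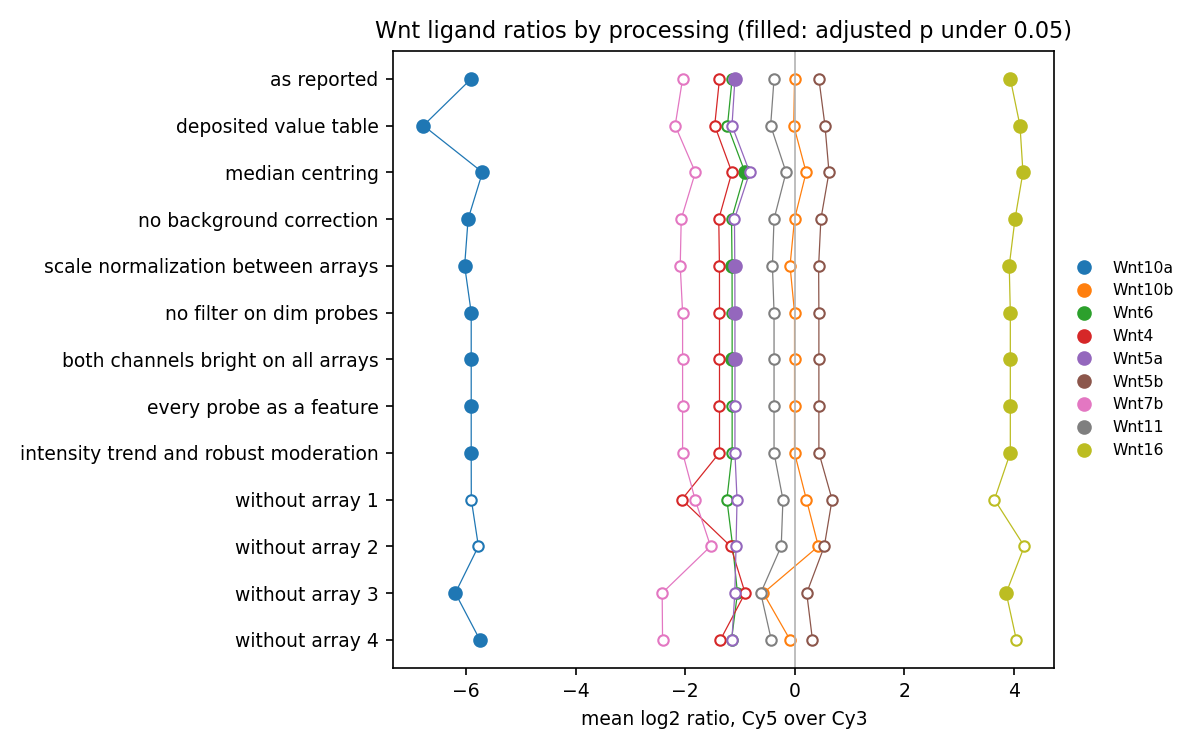
Mean log2 ratio of Cy5 over Cy3 (x axis) of the 9 measured Wnt ligands, 1 colour each, under the reported processing and 12 alternatives (y axis), with filled circles where the adjusted p was under 0.05. Wnt10a stays between -6.78 and -5.70 and Wnt16 between 3.65 and 4.19, while the calls of Wnt5a and Wnt6 come and go and Wnt10b crosses 0.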

How the data were processed

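The 4 arrays were Agilent two-colour mouse arrays of 62976 spots. Spot intensities, background intensities and quality flags were deposited by the authors as scanner output of Agilent Feature Extraction 10.7.3.1, per the file headers, which also name the mm9 build. The authors' deposited value table holds log10 ratios of the scanner software, per a comparison with the files (r = 1.00, column medians of 0), in the direction Cy5 over Cy3.

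Here mean spot signals were background-corrected (limma 3.58.1 in R 4.3.3, normexp, offset 50) and loess-normalised within arrays, with the 3671 control spots at weight 0 and 949 values flagged as outliers left out of the fit. No spot of the listed ligands was saturated. Probes were kept if well above background in 1 channel on at least 3 of 4 arrays. Each gene was represented by its brightest probe, by mean log2 intensity over both channels. The mean ratio over the 4 arrays was tested against 0 with lmFit and eBayes, and genes with a Benjamini-Hochberg adjusted p under 0.05 are said to be called. Each SE is the moderated one of eBayes, whose variance is drawn toward that of all features. Each SD is the plain one over the 4 arrays. Normalised intensities are given after quantile normalisation of average intensities (Aquantile). The offset shrinks ratios of dim spots. The number of arrays limits the precision. On simulated data the same fit called 2% of features changed by 2-fold, 70% by 4-fold, 92% by 8-fold and 98% by 32-fold. There, 50 of 37389 features were changed at each size, with independent normal noise at variances taken from the fit. In the data 21.3% of genes had an unadjusted p under 0.05, and the share called depends on how many genes change. These percentages therefore hold for the simulated setting only.

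The text names every probe of the listed ligands, each called gene of a pathway list with up to 2 bright members that were not called, 3 nearest genes per called ligand and the ligands' genomic neighbours. Ror2, Axin2 and Wnt2b, and the marker sums without their brightest gene, were chosen after their values were seen. Members, lists and rules were chosen with earlier results of these data known. Annotation of exons and UTRs on mm9 was not used here.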

Additional observations from a re-analysis of the deposited data

How the results depend on the processing

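The ratios of Wnt10a, Wnt16, Wnt5a, Wnt6, Wnt4, Wnt7b, Wnt11 and Wnt5b kept their sign in all 12 alternatives. Wnt10b changed sign with median centring (0.21) and ran from -0.57 to 0.43 with 1 array left out. Of the 20 uncalled pathway genes named with a ratio, those that changed sign were, with median centring, Myc (0.28), Csnk1a1 (0.61), Wnt1 (0.10), Dkk3 (0.16) and Wnt2b (0.0644), with the value table Wnt2b (0.17), and with 1 array left out Axin2 (-0.31 to 0.43), Wnt2b (-0.94 to 0.83), Myc (-0.31 to 0.0807), Csnk1a1 (-0.39 to 0.0602), Tcf7 (-0.0614 to 0.82) and Dkk3 (-0.51 to 0.0315). The ligands called toward Cy3 fell from 2 to 1 with the deposited value table, without background correction, with every probe as a feature and with an intensity trend and robust moderation, each time by the loss of Wnt5a. Pathway genes called toward Cy5 rose from 1 to 2 with the value table, 7 with median centring and 3 with scale normalisation, where those toward Cy3 fell from 2 to 0. Over all genes 247 were called toward Cy5 and 171 toward Cy3, 59.1% toward Cy5. The value table gave 106 toward Cy3. Median centring gave 1128 toward Cy5, 82.4% of its 1369 calls, and shifted the median of all genes to 0.20, relative to which its ratios should be read. Leaving out 1 array in turn gave 0 to 1 ligands toward Cy5 and 0 to 1 toward Cy3, 0 to 2 and 0 to 1 pathway genes, and 0 to 103 and 0 to 77 genes in all (limma). The 0 came without array 1 or 2, where 3124 and 3332 genes still had an unadjusted p under 0.05. Fewer arrays were then fitted, and no other cause was tested. Each array pairs the 2 RNAs, so the test of the ratio against 0 was itself paired, and the samples form 1 group. Among the listed ligands, signal near background limits Wnt10a in Cy5 and Wnt3a in both channels.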
